A study of Homo sapiens with 12 samples.

Results

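The genes followed here were the cyclins and cyclin-dependent kinases (CDKs) that act in G1 phase and a pair of CDK inhibitors, chosen by name from the gene count table. They comprised 10 of its 58735 genes, namely the D cyclins *CCND1*, *CCND2* and *CCND3*, the E cyclins *CCNE1* and *CCNE2*, the kinases *CDK2*, *CDK4* and *CDK6*, and the inhibitors *CDKN1B* and *CDKN1C*. RNA-Seq had been performed on A549, an established human lung adenocarcinoma cell line, as control cells or as cells expressing the transcription factor GFI1, all in serum-containing RPMI1640 medium. Each was grown attached on culture-treated plates or held in forced suspension on ultra-low attachment plates for 48 hours. This gave 4 groups of 3 libraries, called attached control, attached GFI1, floating control and floating GFI1. GFI1 came from a lentiviral vector with a GFP marker by which transduced cells were sorted, its coding sequence had been amplified from HUVECs (endothelial cells), and the sources used here do not say whether the control cells of these RNA-Seq libraries carried an empty vector. The labels do not say whether the 3 libraries of a group were separate cultures, so p-values measure only the spread between these libraries.

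D cyclins bind CDK4 or CDK6 in G1 phase, and E cyclins bind CDK2 later, and both kinds of complex phosphorylate the retinoblastoma protein RB, which then releases E2F factors to switch on genes for S phase. CDKN1B encodes p27Kip1 and CDKN1C encodes p57Kip2, paralogs that bind these complexes and hold CDK2 inactive. In epithelial cells, D cyclin levels depend on growth factor signals together with adhesion to a substrate, and p27Kip1 is known to rise when cells stop cycling.

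GFI1 itself checked the labels. Its level, in CPM (counts brought to a common library size by the trimmed mean of M values, TMM), was 0.238 to 0.711 in the 6 control libraries. In the attached GFI1 libraries it was 290.4, 294 and 286 CPM, and in the floating GFI1 libraries 545, 706 and 430 CPM, so that the second floating GFI1 library was highest and the third lowest. Library totals lay between 17014188 and 20748677 counts. Of 8 epithelial or A549 markers, KRT8, KRT18, ALDH1A1, AKR1B10 and AKR1C1 were high in each library (396 CPM or more), whereas *EPCAM* reached only 2.68 CPM and *KRT19* 4.43 CPM. Their summed level was 20029 to 21191 CPM in attached control, 7339 to 7533 CPM in attached GFI1, 18277 to 18743 CPM in floating control and 5749 to 6679 CPM in floating GFI1 libraries. The 10 markers of other cell types summed to 17.8 to 21.9, 15.97 to 17.8, 19.3 to 24.9 and 17.2 to 18.03 CPM in the same order. Among these, *CD3E* and *DCN* had 0 counts and *PTPRC* at most 1. *CD14* reached 229 counts (13.8 CPM), with means of 5.37 and 12.3 CPM in attached and floating control against 4.48 and 6.94 CPM in GFI1 libraries. Of the 10 markers, 5 were tested. With GFI1, 2 rose and 1 fell in attached cells, while 3 rose and 2 fell in floating cells. The endothelial markers *CDH5* (means of 0.0950 and 0.0982 CPM in attached and floating control, 3.24 and 4.03 CPM in GFI1 libraries) and *VWF* (0.0780 and 0.120 against 0.863 and 0.727 CPM) were higher in both. The fibroblast markers split. *COL1A1* was lower in both (13.01 and 9.23 against 6.37 and 3.47 CPM), whereas the mean of *COL3A1* was higher in both (1.10 and 0.625 against 1.59 and 2.12 CPM). Of the 8 epithelial or A549 markers, 6 were lower with GFI1 in both conditions, among them *CDH1* (119.8 and 85.4 against 6.45 and 3.99 CPM), and *AKR1C1* was higher in both (654 and 1125 against 1386 and 1722 CPM). The part of these shifts in the results that follow was not tested. In bulk libraries, fewer cells of one state and less RNA per cell cannot be told apart.

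The genes lie apart in the genome (hg38). *CCND1* is at chr11:69641087-69654474 and *CDKN1C* at chr11:2883213-2885773 on the same chromosome. *CCND2* (chr12:4273772-4305350), *CDKN1B* (chr12:12715058-12722371), *CDK2* (chr12:55966769-55972784) and *CDK4* (chr12:57747727-57756013) share chromosome 12. *CCND3* is at chr6:41934933-42050357, *CDK6* at chr7:92604921-92836594, *CCNE1* at chr19:29811898-29824308 and *CCNE2* at chr8:94879770-94896678. On the opposite strand, *CCND1* is overlapped by *LTO1* (374 to 575 counts per library) and *CDK2* by *PMEL* over its whole span (14 to 40 counts). *CDK4* is overlapped there by *TSPAN31* (333 to 778 counts) and a further protein-coding gene (309 to 426 counts). *CCNE2* is overlapped by *INTS8* (841 to 1178 counts) and *NDUFAF6* (218 to 345 counts). The strand setting of the counting was not given in the sources used here, so reads from these overlaps cannot be assigned with certainty.

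Transcripts of 9 of the 10 genes were measured well enough to test. *CCND2*, a D cyclin best known from blood and germ cells, had 0 to 3 counts in each library. That is at or under the floor of 3 counts, equal to 0.138 to 0.181 CPM, so the gene was not tested. On a per-length scale (CPM per kb of the deposited gene length), *CCND1* led in each group, with 76.4 in attached control, 116 in attached GFI1, 57.1 in floating control and 85.2 in floating GFI1 cells. *CCND3* held rank 2 in attached control cells at 71.5 CPM per kb, just under *CCND1*, and rank 4 in floating GFI1 cells at 17.7 CPM per kb. *CDKN1C* was last of the 9 in attached control cells at 0.665 CPM per kb and held rank 5 in floating GFI1 cells at 10.4 CPM per kb. There its range overlapped that of *CDK6* (10.1 CPM per kb), the next in order, and in both GFI1 groups it lay above *CCNE2*. Other neighbours whose ranges overlapped were *CDK6* and *CCNE1* in attached control, *CDK4* and *CCND3* as well as *CDK2* and *CDK6* in attached GFI1, *CDK4* and *CDKN1B* as well as *CCNE2* and *CDKN1C* in floating control, and *CDKN1B* and *CCND3* as well as *CDK6* and *CDK2* in floating GFI1 libraries.

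**Figure D1:**
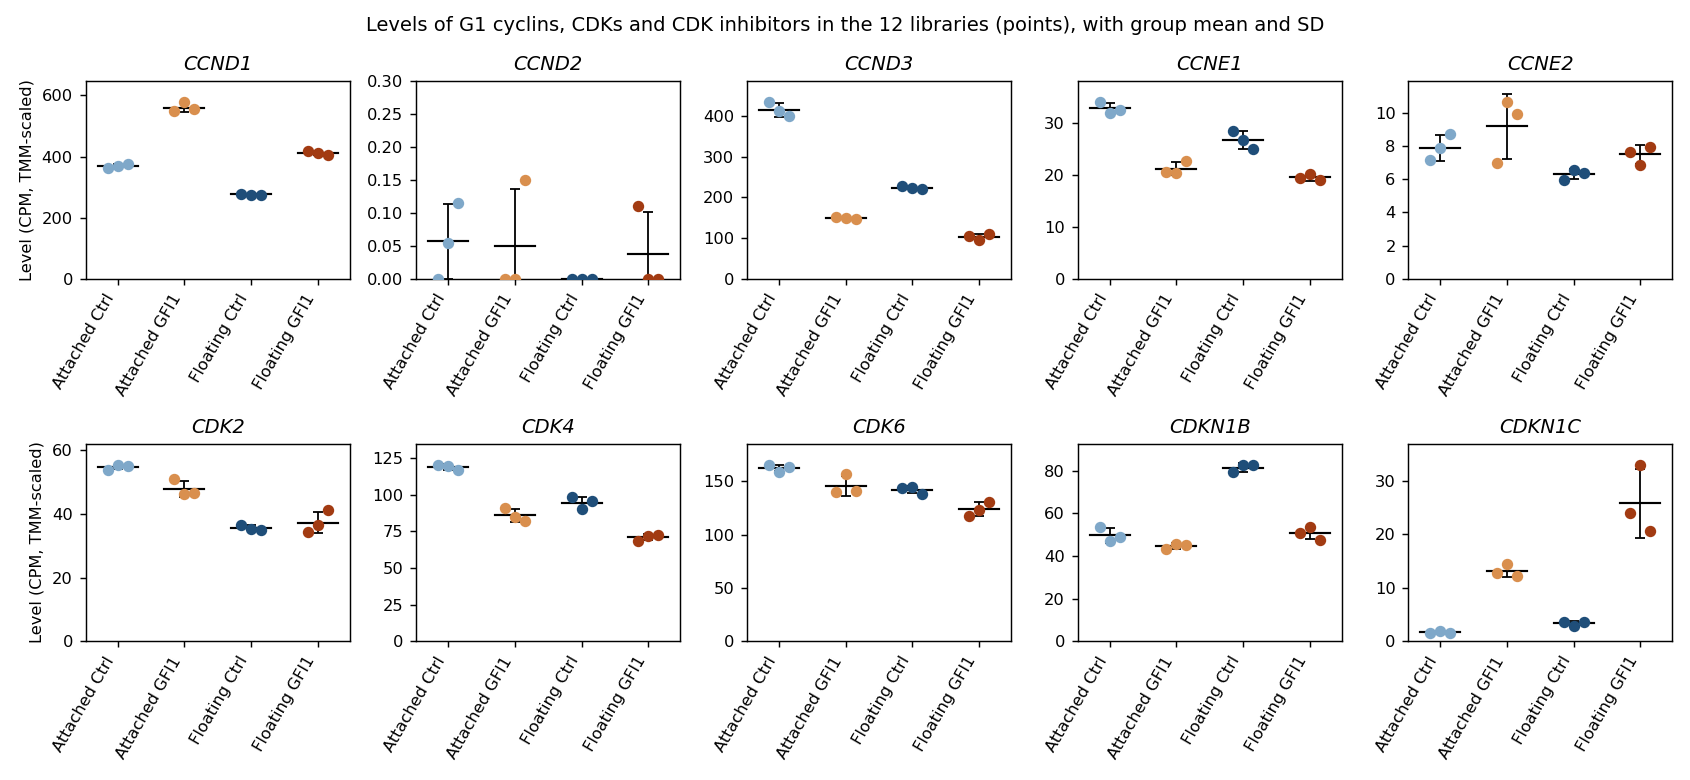
Level of each of the 10 genes in the 12 libraries (y axis, TMM-scaled CPM from 0, with its own range in each panel) by group (x axis); points are libraries, the long bar is the group mean and the error bar the SD of 3 libraries. CCND1 was highest in attached GFI1, CCND3 in attached control, CDKN1B in floating control and CDKN1C in floating GFI1 libraries.

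To ask how these genes differed with GFI1 and with suspension, counts were fitted with edgeR's quasi-likelihood model over all 12 libraries, and a gene was called at a Benjamini-Hochberg adjusted p of 0.05 or less among 17829 genes tested. With GFI1 in attached cells, 2 of the 9 tested genes were called higher and 6 lower, beside 29.5% and 32.8% of all genes tested (62.3% in either direction). With GFI1 in floating cells, 2 were higher and 5 lower, beside 29.3% and 31.1% of all genes (60.4% in either direction). With suspension in control cells, 2 were higher and 6 lower, beside 19.6% and 20.5% of all genes (40.1% in either direction). With suspension in GFI1 cells, 2 were higher and 5 lower, beside 15% and 16.3% of all genes (31.3% in either direction). The median log2 fold change of the 9 genes was -0.16, -0.20, -0.33 and -0.27 in these comparisons, against -0.01, 0.01, 0.01 and 0.00 over all genes. These shares and medians of 9 genes were not tested against the background, and the genes were chosen with earlier results of these data known. Without the third attached GFI1 library, 5 rather than 8 of the genes were called with GFI1 in attached cells, beside 10377 of the 17829 genes tested. Scaling by library size alone moved the median log2 fold change of all genes to 0.14 in both GFI1 comparisons. The share of higher calls among all calls went from 47.4% to 61.5% for attached cells, and for floating cells it went from 48.5% to 61.4%. Under that scaling, the followed genes split into 3 higher and 3 lower with GFI1 when attached, and into 4 higher and 4 lower when floating. Of the 17829 genes tested, 11376 and 11148 were called there in either direction.

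**Figure D2:**
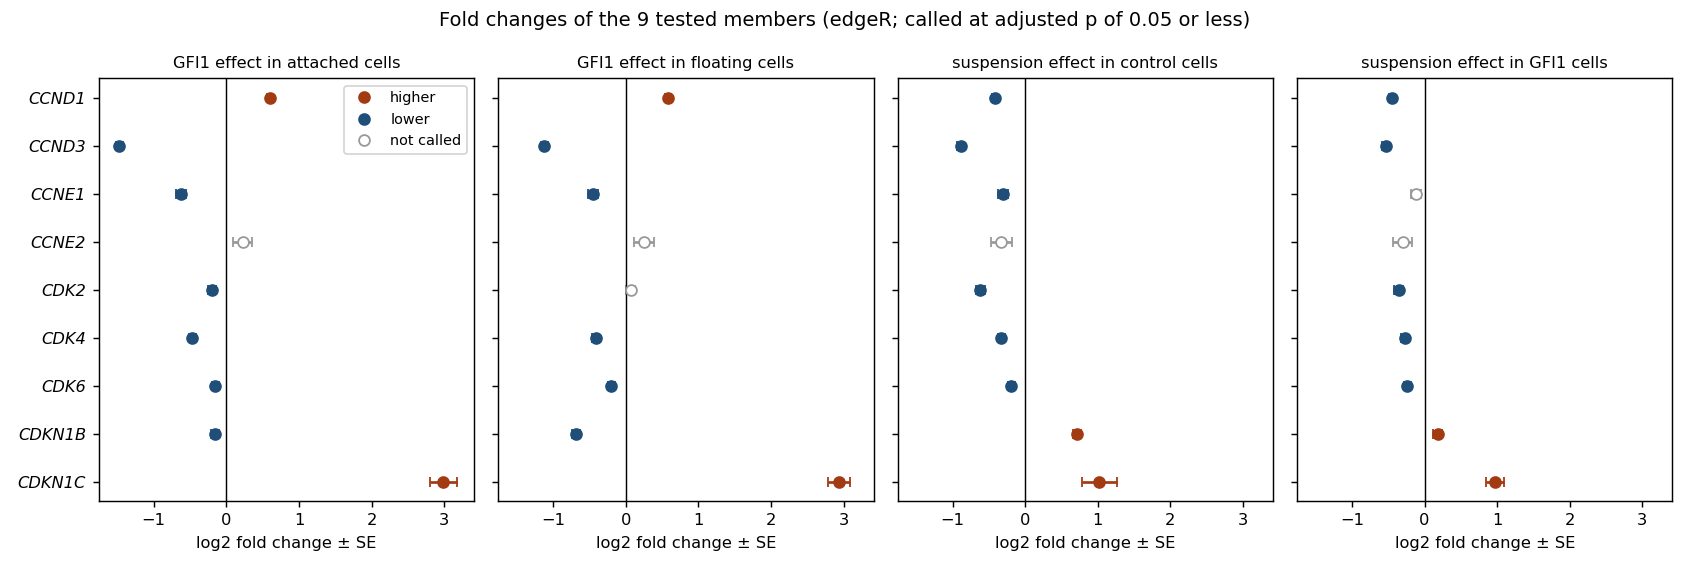
Log2 fold change with SE (x axis) of the 9 tested genes (rows) in the 4 pairwise comparisons (panels), with filled points for genes called higher or lower and open points for those not called. CDKN1C stood near 3 with GFI1 in both panels on the left, and CCND1 and CCND3 lay on opposite sides of 0 there.

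The D cyclins moved in opposite directions with GFI1 and in the same direction with suspension. *CCND1*, cyclin D1, the main D cyclin of many epithelial cells and a gene often amplified in cancer, stood at 361, 370.05 and 375 CPM in the attached control and at 548, 578 and 555 CPM in the attached GFI1 libraries. In suspension it stood at 277, 275 and 275 CPM in control and 418, 412 and 403 CPM in GFI1 libraries. Each GFI1 library was thus above each control library of the same culture condition, and each floating library was below each attached library of the same cells. *CCND1* rose with GFI1 by 0.60 ± 0.04 (SE) on the log2 scale in attached cells (1.52-fold, edgeR adjusted p = 7.08e-13) and 0.58 ± 0.04 in floating cells (1.49-fold, edgeR adjusted p = 2.29e-12). With suspension it fell in control cells (log2 fold change -0.42 ± 0.04, edgeR adjusted p = 3.68e-09) and in GFI1 cells (-0.45 ± 0.04, edgeR adjusted p = 2.02e-09). Floating GFI1 cells (411 ± 7.33 CPM, SD, n = 3) held more *CCND1* than attached control cells (369 ± 6.98 CPM), a pair for which no test was made.

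*CCND3*, cyclin D3, a paralog that binds the same kinases, had 434, 411 and 399.9 CPM in attached control and 152, 150.1 and 146 CPM in attached GFI1 libraries. In floating control libraries it had 229, 223 and 219.8 CPM, and in floating GFI1 libraries 105, 95.1 and 109 CPM. The 4 groups did not overlap, and the order ran from attached control through floating control and attached GFI1 to floating GFI1. With GFI1 it changed by -1.47 ± 0.05 on the log2 scale in attached cells (2.78-fold lower, edgeR adjusted p = 3.51e-19) and -1.12 ± 0.05 in floating cells (2.17-fold lower, edgeR adjusted p = 1.93e-16). With suspension it also fell, with changes of -0.89 ± 0.05 in control cells (1.85-fold lower, edgeR adjusted p = 7.94e-14) and -0.54 ± 0.05 in GFI1 cells (1.45-fold lower, edgeR adjusted p = 4.25e-09). In attached cells 932 of the 17829 genes fell further with GFI1, and 10.6% changed more in size.

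Because *CCND3* fell most among the genes followed and *CDKN1B*, described further on, differed most in its suspension change between the 2 kinds of cells, the DNA upstream of their starts is shown here. The sequences are from RefSeq (GRCh38.p14), which held promoter windows for 5 of the 10 genes (8 windows, of which *CCND3* had 3), each of 300 bases around a transcript start. Below are the 250 bases before the start, 5′ to 3′ on the gene's own strand, for 2 of the *CCND3* starts (chr6:41939206-41939455 and chr6:42048689-42048938, minus strand) and for *CDKN1B* (chr12:12717118-12717367, plus strand). The *CCND3* window between them (chr6:41941809-41942058) is not shown and held none of the letters searched. Which *CCND3* start these cells use was not determined. Capitals mark AATCAC, which holds the AATC core that GFI1 is known to bind, read on the opposite strand.
CCND3 inner start: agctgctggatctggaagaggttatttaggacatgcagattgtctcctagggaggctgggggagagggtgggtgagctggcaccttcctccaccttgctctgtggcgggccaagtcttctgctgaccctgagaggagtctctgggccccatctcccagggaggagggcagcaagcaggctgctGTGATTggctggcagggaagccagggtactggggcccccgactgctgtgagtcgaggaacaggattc
CCND3 outer start: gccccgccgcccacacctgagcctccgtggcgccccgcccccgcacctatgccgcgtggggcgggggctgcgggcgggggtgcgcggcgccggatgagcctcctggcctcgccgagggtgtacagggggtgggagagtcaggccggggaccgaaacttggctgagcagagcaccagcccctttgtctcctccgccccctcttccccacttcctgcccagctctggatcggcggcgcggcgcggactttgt
CDKN1B start: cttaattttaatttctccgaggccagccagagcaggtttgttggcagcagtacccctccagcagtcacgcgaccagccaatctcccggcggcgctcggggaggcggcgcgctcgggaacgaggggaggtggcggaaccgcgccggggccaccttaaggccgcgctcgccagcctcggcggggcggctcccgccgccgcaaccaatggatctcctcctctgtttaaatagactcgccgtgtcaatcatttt
Only the inner *CCND3* window held the full AATCAC among the 8 windows, at position -67 from the start, and 10.2% of 35116 promoters held it on either strand. The shorter AATC core was not searched. It also stands unmarked in the *CDKN1B* sequence above and, read on the opposite strand, elsewhere in the inner *CCND3* sequence. None of the 8 windows held the E2F-like letters TTTCGCGC (0.515% of promoters) or TTTGGCGC (0.652%), or the cell cycle element TTTGAA (15.2%), on either strand. Only these exact letters were searched, and other forms of E2F site were not looked for. These matches are a description of the letters, not of binding.

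With *CCND1* higher and *CCND3* lower, the make-up of the D cyclins shifted with GFI1, while their sum differed less. Per kb, the 3 D cyclins summed to 148 ± 1.53 (SD, n = 3) in attached control, 142 ± 3.26 in attached GFI1, 95.7 ± 1.09 in floating control and 103 ± 1.48 in floating GFI1 libraries, ranges that did not overlap between GFI1 and control. *CCND1* made up 51.6 ± 1.505% of this sum in attached control and 81.8 ± 0.498% in attached GFI1 libraries. In suspension its share was 59.7 ± 0.380% in control and 82.8 ± 1.14% in GFI1 libraries. The lowest share in any GFI1 library was 81.3% and the highest in any control library was 60.02%, so the ranges were far apart. The shares are given as a description, with no test. Without the division by gene length, the *CCND1* shares in the order above were 47.1%, 79.0%, 55.2% and 80.0%.

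**Figure D3:**
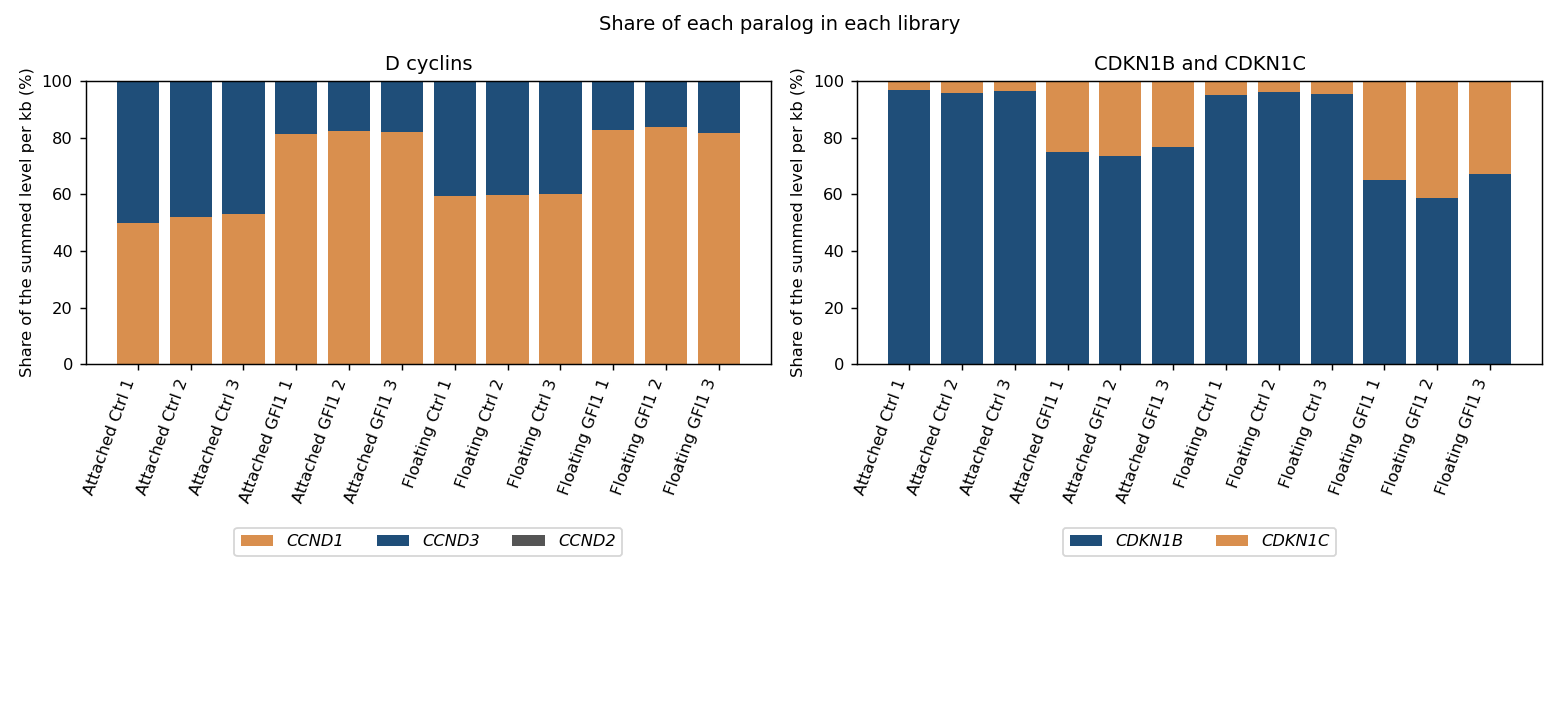
Share of each paralog in the summed level per kb (y axis, percent) in each of the 12 libraries (x axis), for the D cyclins (left) and for CDKN1B with CDKN1C (right); CCND2 is too low to be seen. The CCND1 share was 81.3% or more in GFI1 libraries, and the CDKN1C share was 23.4% or more there against 4.85% or less in control libraries.

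Of the E cyclins, *CCNE1* fell with GFI1, whereas *CCNE2* did not pass the test in any comparison. *CCNE1*, cyclin E1, the partner of CDK2 at the start of S phase, had 33.9, 31.9 and 32.4 CPM in attached control and 20.5, 20.4 and 22.7 CPM in attached GFI1 libraries. Floating control libraries had 28.3, 26.7 and 24.9 CPM and floating GFI1 libraries 19.4, 20.2 and 18.9 CPM. The 6 GFI1 libraries were below the 6 control libraries, with attached and floating GFI1 libraries close together. The log2 fold change with GFI1 was -0.63 ± 0.07 in attached cells (1.55-fold lower, edgeR adjusted p = 1.59e-08) and -0.45 ± 0.07 in floating cells (1.37-fold lower, edgeR adjusted p = 6.60e-06). Suspension lowered it in control cells, with a change of -0.30 ± 0.07 (edgeR adjusted p = 0.000928), while in GFI1 cells the change of -0.12 ± 0.07 did not pass (edgeR adjusted p = 0.235). The difference between these suspension changes was not called either (0.18 ± 0.10, edgeR adjusted p = 0.293).

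*CCNE2*, cyclin E2, had 101 to 231 counts per library. It stood at 7.15, 7.87 and 8.72 CPM in attached control, 6.99, 10.7 and 9.96 CPM in attached GFI1, 5.99, 6.56 and 6.40 CPM in floating control, and 7.67, 6.89 and 7.96 CPM in floating GFI1 libraries. The first attached GFI1 library lay below all 3 attached controls and the others above them. Its log2 fold changes were 0.23 ± 0.13 and 0.25 ± 0.14 with GFI1 (edgeR adjusted p = 0.140 and 0.132) and -0.33 ± 0.14 and -0.30 ± 0.13 with suspension (edgeR adjusted p = 0.0705 and 0.0853). Without the first attached GFI1 library, the change with GFI1 in attached cells was 0.38 and passed (edgeR adjusted p = 0.00885), as did both suspension changes (edgeR adjusted p = 0.0320 in control and 0.00582 in GFI1 cells). Library size scaling also made both GFI1 changes pass (0.37 and 0.38). The *CCNE2* share of the E cyclin sum per kb was 12.3 ± 1.32% and 12.1 ± 1.08% in attached and floating control libraries, and 20.0 ± 3.39% and 18.3 ± 1.58% in attached and floating GFI1 libraries.

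Of the kinases, *CDK4* and *CDK6* fell in each pairwise comparison and *CDK2* in 3 of 4. *CDK4*, the first partner of D cyclins, had 120.2, 119 and 117 CPM in attached control, 90.8, 84.6 and 81.9 CPM in attached GFI1, 98.04, 89.9 and 95.3 CPM in floating control, and 68.6, 72.1 and 72.2 CPM in floating GFI1 libraries. Groups that differed in 1 factor did not overlap. It fell in all 4 pairwise comparisons, with log2 fold changes of -0.47 ± 0.05 and -0.41 ± 0.05 with GFI1 in attached and floating cells (edgeR adjusted p = 2.77e-09 and 4.86e-08) and -0.33 ± 0.05 and -0.27 ± 0.05 with suspension in control and GFI1 cells (edgeR adjusted p = 2.76e-06 and 8.03e-05). *CDK6*, its close paralog, ranged from 118 to 165 CPM over the 12 libraries, with group means of 162 ± 3.24 in attached control, 146 ± 9.51 in attached GFI1, 142 ± 3.66 in floating control and 124 ± 6.58 CPM in floating GFI1 libraries. Its log2 fold changes of -0.16 ± 0.05 and -0.20 ± 0.05 with GFI1 and -0.19 ± 0.05 and -0.24 ± 0.05 with suspension all passed (edgeR adjusted p from 0.00048 to 0.00705). The change with GFI1 in attached cells rested on scaling and on 1 library, since it was -0.10 under upper quartile scaling (edgeR adjusted p = 0.0580), -0.01 under library size scaling and -0.11 without the third attached GFI1 library (edgeR adjusted p = 0.104). Library size scaling also ended the call in floating cells (-0.07, edgeR adjusted p = 0.207).

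*CDK2*, the partner of E cyclins and later of cyclin A, was lower in suspension. It had 53.9, 55.4 and 54.9 CPM in attached control and 50.8, 46.2 and 46.7 CPM in attached GFI1 libraries. In suspension it had 36.5, 35.4 and 35.0 CPM in control and 34.4, 36.4 and 41.1 CPM in GFI1 libraries. All 6 floating libraries were below all 6 attached libraries, and the floating groups overlapped each other. Its log2 fold change with suspension was -0.62 ± 0.06 in control cells (1.54-fold lower, edgeR adjusted p = 8.25e-09) and -0.36 ± 0.06 in GFI1 cells (1.28-fold lower, edgeR adjusted p = 4.72e-05). With GFI1 it fell slightly in attached cells (-0.19 ± 0.06, edgeR adjusted p = 0.00560) and was not called in floating cells (0.07 ± 0.06, edgeR adjusted p = 0.359). The attached call was lost under library size scaling (-0.05, edgeR adjusted p = 0.494) and without the third attached GFI1 library (-0.15, edgeR adjusted p = 0.0599). Under library size scaling the floating change of 0.20 passed (edgeR adjusted p = 0.00816).

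*CDKN1C* showed the largest change of the genes followed. This inhibitor, an imprinted gene known for halting the cycle in differentiating tissues, had 1.55, 1.85 and 1.55 CPM in attached control libraries, from only 26 to 34 counts. Attached GFI1 libraries had 12.8, 14.5 and 12.2 CPM, floating control libraries 3.56, 2.95 and 3.57 CPM, and floating GFI1 libraries 23.9, 33.0 and 20.5 CPM. The 4 groups did not overlap. With GFI1 its log2 fold change was 2.99 ± 0.19 in attached cells (7.94-fold, edgeR adjusted p = 4.73e-13) and 2.94 ± 0.16 in floating cells (7.65-fold, edgeR adjusted p = 1.31e-14). In attached cells 226 of the 17829 genes rose further, and in floating cells 196. With suspension it rose by 1.02 ± 0.24 in control cells (2.03-fold, edgeR adjusted p = 0.00135) and by 0.97 ± 0.12 in GFI1 cells (1.96-fold, edgeR adjusted p = 1.02e-06). Among the floating GFI1 libraries, the second was highest and the third lowest for *CDKN1C* as for GFI1, an order over 3 libraries that was not tested.

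*CDKN1B* rose with suspension and was lower with GFI1 in floating cells. It stood at 53.6, 46.9 and 48.7 CPM in attached control and 43.2, 45.5 and 45.2 CPM in attached GFI1 libraries. In suspension it stood at 79.2, 82.5 and 82.7 CPM in control and 50.7, 53.4 and 47.7 CPM in GFI1 libraries. The floating control libraries were above all others, and the floating GFI1 libraries overlapped the attached controls. Suspension raised it by 0.71 ± 0.05 on the log2 scale in control cells (1.64-fold, edgeR adjusted p = 9.00e-11) and by 0.18 ± 0.06 in GFI1 cells (1.13-fold, edgeR adjusted p = 0.0159). It fell with GFI1, with changes of -0.69 ± 0.05 in floating cells (1.61-fold lower, edgeR adjusted p = 3.41e-11) and -0.15 ± 0.06 in attached cells (1.11-fold lower, edgeR adjusted p = 0.0208). The 2 smaller changes were fragile. The attached change with GFI1 was lost without the first attached control library (-0.10, edgeR adjusted p = 0.159) or attached GFI1 library 1 or 3 (-0.13 and -0.14, edgeR adjusted p = 0.0759 and 0.0661), and under upper quartile or library size scaling (-0.10 and -0.01). The suspension change in GFI1 cells was lost without the first attached GFI1 (0.16, edgeR adjusted p = 0.0665) or the second floating GFI1 library (0.12, edgeR adjusted p = 0.132).

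Set against each other per kb, the inhibitors shifted with GFI1. *CDKN1C* made up 3.64 ± 0.570% of their summed level in attached control, 25.0 ± 1.59% in attached GFI1, 4.47 ± 0.504% in floating control and 36.3 ± 4.37% in floating GFI1 libraries. The sum itself was 18.4 ± 1.19, 21.2 ± 0.763, 30.3 ± 0.652 and 28.4 ± 3.57 CPM per kb in that order. *CDKN1B* thus remained the larger part in each group, and the sum was higher in both floating groups than in both attached groups.

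The difference between the suspension change in GFI1 cells and that in control cells was tested as an interaction. Of the 9 genes, 2 were called higher and 1 lower, beside 4.76% and 6.01% of all genes tested (10.8% in either direction). For *CDKN1B* the difference was -0.53 ± 0.08 on the log2 scale (edgeR adjusted p = 3.43e-05), its rise in suspension being smaller in GFI1 cells. For *CCND3* it was 0.35 ± 0.07 (edgeR adjusted p = 0.000696), its fall being smaller in GFI1 cells, and both stayed past the threshold when any single library was left out. For *CDK2* it was 0.26 ± 0.09 at the edge of the threshold (edgeR adjusted p = 0.0496). That call was lost with DESeq2 (adjusted p = 0.0979), with 3 other ways of scaling, with the replicate block, and when any of 10 of the 12 libraries was left out. *CCND1*, *CCNE1*, *CCNE2*, *CDK4*, *CDK6* and *CDKN1C* had differences from -0.05 to 0.18 that did not pass (edgeR adjusted p from 0.293 to 0.964).

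Other genes of the G1 to S pathway were counted by list, in the order GFI1 in attached cells, GFI1 in floating cells, suspension in control cells and suspension in GFI1 cells. In that order, 29.5%, 29.3%, 19.6% and 15% of all genes tested were higher and 32.8%, 31.1%, 20.5% and 16.3% lower, and no list was tested against these shares. The lists were chosen with earlier results of these data known, so their counts beside these shares are a description only. Of the other CDK inhibitors, *CDKN2A* had at most 1 count and *CDKN2B* 0 counts in any library, so neither was tested. *CDKN2C*, an inhibitor of CDK4 and CDK6, rose with GFI1 by 0.67 ± 0.05 in attached and 0.67 ± 0.05 in floating cells (edgeR adjusted p = 6.22e-11 and 8.62e-11). *CDKN1A*, which encodes p21Cip1 and is the third paralog of the CDKN1 family, rose with suspension by 0.47 ± 0.05 in control and 0.32 ± 0.05 in GFI1 cells (edgeR adjusted p = 1.23e-08 and 6.36e-06). With GFI1 it rose by 0.14 ± 0.05 in attached cells (edgeR adjusted p = 0.0141), a call lost without the second attached GFI1 library (0.11, edgeR adjusted p = 0.0670), and it was at -0.01 ± 0.05 in floating cells, where the sign turned under upper quartile scaling (0.04) and under library size scaling, which also made it a call (0.12, edgeR adjusted p = 0.0196). Of the 3 tested inhibitors on this list, 2, 1, 1 and 1 were called higher and 0 lower in the 4 comparisons.

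Genes that control the turnover of G1 cyclins and of p27Kip1 came next. *SKP2*, the ubiquitin ligase subunit that marks p27Kip1 for destruction, fell in all 4 comparisons in the order just given (log2 fold changes of -0.28 ± 0.06, -0.47 ± 0.07, -0.25 ± 0.06 and -0.44 ± 0.07, edgeR adjusted p from 1.58e-06 to 0.00344). The first of these calls was lost under library size scaling (-0.13, edgeR adjusted p = 0.0845). *CKS1B*, the cofactor of SKP2, also fell in all 4 (-0.39, -0.30, -0.45 and -0.35). *FBXW7*, the subunit that marks cyclin E for destruction, rose with GFI1 by 1.55 ± 0.07 in attached cells (2.92-fold, edgeR adjusted p = 1.61e-15) and 1.42 ± 0.07 in floating cells (2.68-fold, edgeR adjusted p = 3.17e-15). *AMBRA1*, a ubiquitin ligase receptor for D cyclins, fell with GFI1 in floating cells (-0.38 ± 0.05, edgeR adjusted p = 1.41e-06) and was not called in attached cells (0.06 ± 0.05, edgeR adjusted p = 0.343), where it passed under library size scaling (0.21, edgeR adjusted p = 0.00172). Of the 11 genes on this list, 2, 4, 3 and 1 were higher and 4, 4, 5 and 4 lower, with median log2 fold changes of 0.01, -0.09, -0.08 and -0.08. With GFI1 in attached cells that is 6 of 11 called in either direction, beside 62.3% of all genes.

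Downstream of the kinases stand the S phase genes. Of 13 tested, 13 were lower with GFI1 in attached cells, 10 with GFI1 in floating cells, 12 with suspension in control cells and 13 with suspension in GFI1 cells, beside 32.8%, 31.1%, 20.5% and 16.3% of all genes, and 0 were higher in any. Like the other lists, these genes were chosen with earlier results of these data known. Their median log2 fold changes were -0.41, -0.36, -0.66 and -0.58. The log2 fold changes of *CCNA2*, cyclin A2, were -0.41, -0.48, -0.52 and -0.60, those of *MYBL2* were -0.75, -0.72, -1.004 and -0.97, and those of *TK1*, thymidine kinase, were -0.66, -0.72, -0.70 and -0.76 in that order (edgeR adjusted p of 7.05e-07 or less for each). The lower S phase genes with suspension stood beside lower *CCND1*, *CCND3*, *CDK2* and *CDK4*, and those with GFI1 beside higher *CCND1* and lower *CCND3*, *CCNE1* and *CDK4*. *CDK6* was lower and *CDKN1C* higher in each comparison, while *CDKN1B* was higher with suspension and lower with GFI1. Any link between these changes was not tested.

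**Figure D4:**
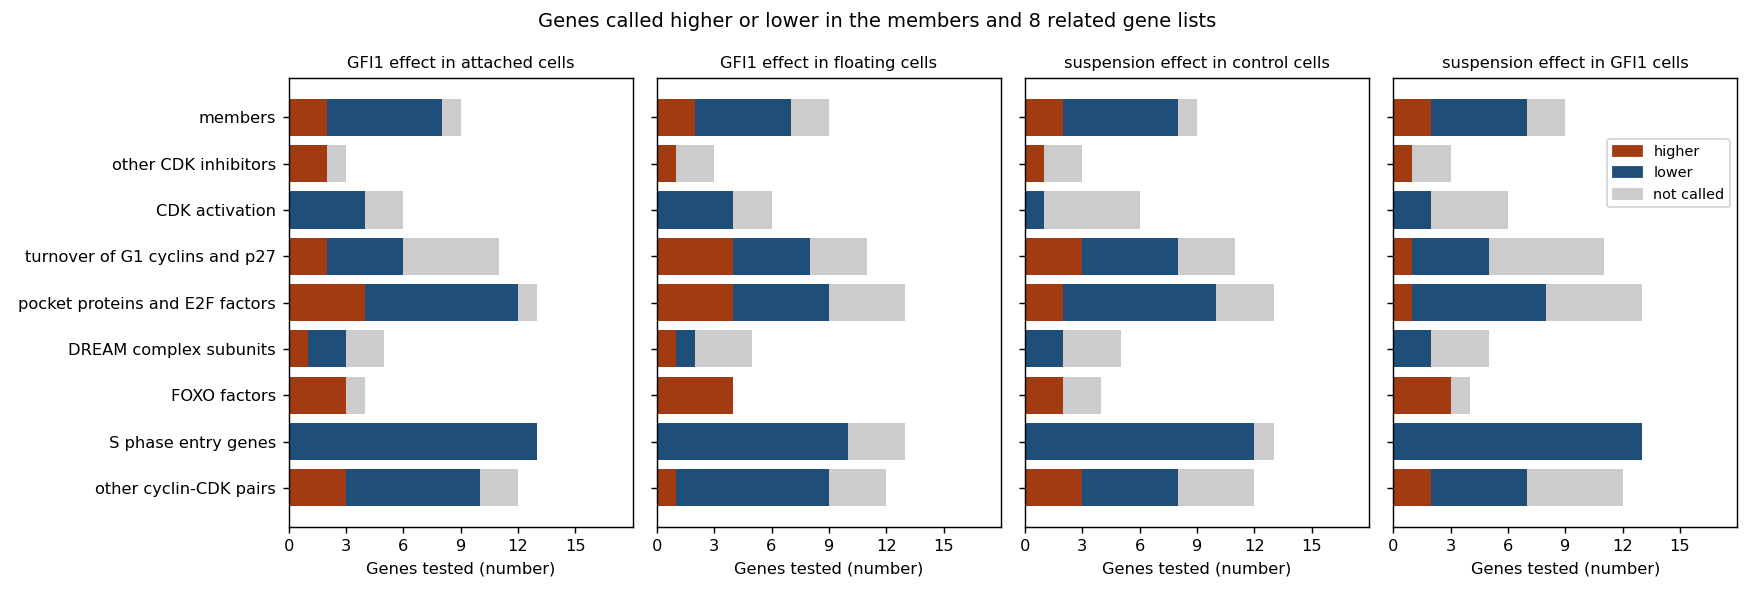
Number of tested genes (x axis) called higher, called lower or not called in the genes followed here (members) and in 8 related lists (rows), for the 4 pairwise comparisons (panels). S phase entry genes were lower in 10 to 13 of 13, beside 16.3% to 32.8% of all genes tested. FOXO factors were higher in 2 to 4 of 4, beside 15% to 29.5% of all genes tested. The members, the turnover genes, the pocket proteins with E2F factors and the other cyclin-CDK pairs held calls in both directions in each panel.

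The pocket proteins, which the G1 kinases phosphorylate, split. *RB1* rose with GFI1 (0.43 ± 0.05 in attached and 0.58 ± 0.05 in floating cells, edgeR adjusted p = 1.52e-07 and 1.02e-09) and *RBL2* rose in all 4 comparisons (0.42, 0.23, 0.33 and 0.14), whereas *RBL1* fell in all 4 (-0.27, -0.15, -0.73 and -0.62). The smallest change of each was fragile. That of *RBL2* with suspension in GFI1 cells was lost with DESeq2 (adjusted p = 0.0765), with RLE scaling and without any 1 of 5 of the GFI1 libraries, the second attached one being the exception. That of *RBL1* with GFI1 in floating cells was lost with DESeq2 (adjusted p = 0.0705), under upper quartile and library size scaling (-0.11 and -0.024), under both other filters, in a fit of the 2 groups alone, and without attached GFI1 library 3, floating control library 1 or 3, or floating GFI1 library 1 or 3 (-0.17 to -0.12). Library size scaling also ended the *RBL1* call in attached cells (-0.12, edgeR adjusted p = 0.0662). *E2F1*, an activating E2F, fell with GFI1 in attached cells (-0.52 ± 0.06, edgeR adjusted p = 6.85e-08), was not called in floating cells (-0.07 ± 0.07, edgeR adjusted p = 0.364) and fell with suspension in both kinds of cells (-0.91 ± 0.06 in control and -0.46 ± 0.07 in GFI1 cells, edgeR adjusted p = 2.83e-11 and 4.88e-06). *E2F2* fell in all 4 (-1.06, -1.15, -0.48 and -0.57). Of the 13 pocket protein and E2F genes, 4, 4, 2 and 1 were higher and 8, 5, 8 and 7 lower, with median log2 fold changes of -0.27, -0.07, -0.22 and -0.12, the first count of 4 being close to the 29.5% of all genes. Of the 5 subunits of the DREAM complex, which keeps cell cycle genes silent, 1, 1, 0 and 0 were higher and 2, 1, 2 and 2 lower, with medians of -0.03, -0.01, -0.21 and -0.18.

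FOXO factors, known activators of *CDKN1B*, were higher where they were called. Of 4 tested, 3, 4, 2 and 3 were higher, beside 29.5%, 29.3%, 19.6% and 15% of all genes, and 0 were lower. Their median log2 fold changes were 0.74, 0.74, 0.36 and 0.25. *FOXO1* rose with GFI1 by 1.09 ± 0.10 in attached and 1.15 ± 0.09 in floating cells (edgeR adjusted p = 3.23e-10 and 7.34e-11). Any link between the FOXO transcripts and *CDKN1B* was not tested. *FOXO4* rose by 1.62 ± 0.11 and 0.79 ± 0.10 with GFI1 and by 1.07 ± 0.12 with suspension in control cells (edgeR adjusted p of 2.17e-07 or less), and *FOXO3* by 0.38, 0.26, 0.38 and 0.25 in the 4 comparisons. Without the second floating GFI1 library, the last of these was 0.15 and not called (edgeR adjusted p = 0.108), and without 1 library the second ran from 0.17 to 0.30. With suspension in GFI1 cells, *FOXO1* lost its call without attached GFI1 library 1 or 3 or floating GFI1 library 2 (edgeR adjusted p = 0.0821, 0.0554 and 0.188). *FOXO4* was not called there but passed in some alternatives, among them upper quartile scaling (0.25, edgeR adjusted p = 0.0421). Of 6 genes that activate CDKs, 0 were higher and 4, 4, 1 and 2 lower (medians of -0.23, -0.34, -0.015 and -0.04), beside 32.8%, 31.1%, 20.5% and 16.3% of all genes. Among them were the phosphatases *CDC25A* (-0.73, -0.40, -0.92 and -0.58) and, with GFI1, *CDC25B* (-0.76 and -0.92). The *CDC25A* call with GFI1 in floating cells was lost under library size scaling (-0.27, edgeR adjusted p = 0.0705), without the second floating control library (-0.29, edgeR adjusted p = 0.0785) and without the second floating GFI1 library (-0.25, edgeR adjusted p = 0.0761). Of 12 other cyclin and CDK genes, 3, 1, 3 and 2 were higher and 7, 8, 5 and 5 lower (medians of -0.18, -0.20, -0.04 and -0.12), so that 10, 9, 8 and 7 were called in either direction, beside 62.3%, 60.4%, 40.1% and 31.3% of all genes. Mitotic *CCNB1* fell in all 4 (-0.60, -0.67, -0.50 and -0.57), while *CCNG2*, a cyclin linked to cell cycle exit, rose by 1.29 ± 0.08 with GFI1 in attached cells and by 1.77 ± 0.07 and 0.61 ± 0.06 with suspension (edgeR adjusted p = 1.23e-13, 1.66e-15 and 4.18e-08).

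The genes whose pattern over the 12 libraries was most like each followed gene were sought among 11885 protein-coding genes, by the root mean square difference of log2 CPM after each gene was centred on its own mean. For *CCND1* the closest was *FBLN1* at 0.04, beside a spread of 0.37 for *CCND1* itself, followed by *RHOBTB2* and *ANK1* at 0.07. For *CCND3* it was *LRRC20* at 0.12 (spread 0.75), with *GNG12* at 0.12 and *AFAP1* at 0.13. *CDKN1B* was closest to *TBC1D8* at 0.08 (spread 0.34), then to *PSMC4* and *TTC39A* at 0.10. For *CDKN1C* the nearest were *SBK3* at 0.24, *APOL1* at 0.29 and *SLITRK6* at 0.31, larger differences beside its larger spread of 1.54. *CDK4* was nearest to *TUFM*, *CDK6* to *MRPS27*, *CDK2* to *RBMS2* and *CCNE1* to *ODF2*, at 0.04, 0.04, 0.05 and 0.05. *CCNE2* was nearest to *RTN4R* at 0.12, beside a spread of 0.24. None of the 9 tested genes was among the 3 nearest of another.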

How the data were processed

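The authors selected poly-A mRNA, sequenced it on an Illumina NovaSeq instrument and deposited raw counts per gene as 1 table for all 12 libraries. Their methods name Hisat2 and featureCounts, whereas the submitters' processing notes name Bowtie2 and HTSeq. The build is hg38. The annotation release, the strand setting and the treatment of reads that map to several places are not given in the sources used here.

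Groups and replicate numbers came from the sample labels. From the counts, genes were kept by edgeR's filterByExpr (minimum count 10, minimum total 15), scaled by TMM and tested with edgeR's quasi-likelihood test (edgeR 4.0.16, limma 3.58.1, R 4.3.3) in 1 model with 4 group means, with 5 contrasts, each adjusted by Benjamini-Hochberg over all genes tested. The common biological coefficient of variation was 4.86%. The procedure was tested on simulated data. Alternatives were DESeq2 1.42.0, other scalings and filters, a robust fit, the 2 groups alone, a replicate block and leaving out each library. The members and gene lists were chosen with earlier results of these data known. The rule for named genes was all 10 members, GFI1, *CDKN1A*, *CDKN2A*, *CDKN2B*, *SKP2*, *RB1*, *E2F1* and *CCNA2*, for each list and comparison also the higher and the lower gene of smallest adjusted p, as an option, and the 3 genes most like each member (mean log2 CPM of at least 1). *RBL1*, *RBL2*, *FOXO3*, *CKS1B* and *CDC25A* come from that rule. The floor and the precision of low counts cover counting error only. The SEs come from the fit and the SDs from the libraries of a group, so both include spread between libraries. Replicate libraries of a group differed by more than sampling noise (chi-square per gene 1.98 to 11.2), so none was counted as a duplicate, and floating GFI1 libraries 2 and 3 differed most. A further gene of the list of markers of other cell types is left out and not reported here.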

Additional observations from a re-analysis of the deposited data

Results flagged for a closer look

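The suspension change differed between GFI1 and control cells, by the interaction test (edgeR adjusted p of 0.05 or less), for 3 of the genes followed and for 4 other named genes. The difference, as the log2 fold change with suspension in GFI1 cells minus that in control cells, was 0.35 for *CCND3* (adjusted p = 0.000696), 0.26 for *CDK2* (adjusted p = 0.0496) and -0.53 for *CDKN1B* (adjusted p = 3.43e-05). It was 0.44 for *E2F1* (adjusted p = 0.00183), -0.44 for *AMBRA1* (adjusted p = 0.000286), -0.83 for *FOXO4* (adjusted p = 0.000562) and -1.15 for *CCNG2* (adjusted p = 1.51e-08). Of all genes tested 10.8% were called.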

How the results depend on the processing

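The fold changes of the 9 tested genes kept their direction under DESeq2 and every other scaling, filter and fit listed, except on leaving out libraries. When single libraries were left out, 4 uncalled changes crossed 0: *CDK2* with GFI1 in floating cells (-0.0086 to 0.12) and the interactions of *CCNE2* (-0.13 to 0.14), *CDK6* (-0.087 to 0.012) and *CDKN1C* (-0.29 to 0.089). *CDKN1A* with GFI1 in floating cells turned to 0.039 under upper quartile scaling, 0.12 under library size scaling and 0.011 with 10 counts required in every library, and leaving out 1 library gave -0.067 to 0.030. *E2F1* with GFI1 in floating cells turned to 0.056 under library size scaling. The cause was not tested. The number of followed genes called with GFI1 in attached cells was 5 to 8 on leaving out 1 library, and in the other comparisons 7 to 7 (GFI1, floating), 8 to 9 (suspension, control), 6 to 7 (suspension, GFI1) and 2 to 3 (interaction). With no library left out, 62.3%, 60.4%, 40.1%, 31.3% and 10.8% of all genes tested were called in these comparisons. Same-numbered libraries did not deviate together (correlations from -0.03 to 0.03 over 18 pairs), so the numbers gave no pairing. With the replicate block 8, 7, 8, 7 and 2 genes were called, against 8, 7, 8, 7 and 3 without it, the lost call being the interaction of *CDK2*. Of the 17829 genes tested, 11054, 10713, 7110, 5546 and 1904 were called with the block. Over these alternatives, leaving out libraries apart, 381 fold changes of the followed genes kept direction and call, 11 lost a call and 4 gained one. *CCND2* and changes of *CCNE2* and *CDKN1C* from low counts are limited by depth.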
